A study of Arabidopsis thaliana with 12 samples.

Results

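The klu mutant was set against wild-type Arabidopsis, gene by gene, in 6 of the 12 libraries of the study, 3 of klu and 3 of Col-0. The klu plants carry the T-DNA line SALK_024697C, an insertion in KLU (AT1G13710, also CYP78A5), and Col-0 is the wild type of the same background, so that the mutant is known here from a single allele. Every library came from the rosette of an individual plant at 35 days after germination, which the labels call leaf. Seedlings of both genotypes were started on MS plates, moved to soil and kept at 22°C in short days of 8 h of light. The other 6 libraries are of plants that express KLU from the viral 35S promoter (lines 35S:KLU1 and 35S:KLU2). They served here to estimate the spread between plants and to set a level beside some of the genes named below. Values are FPKM, fragments scaled to transcript length and to the size of the library. Of 33323 genes in the table, the 19228 with at least 0.5 FPKM in 3 or more of the 6 libraries were tested. Differences are log2 of (FPKM + 1), klu minus Col-0, with the standard error (SE), a scale on which changes of low genes look smaller than they are. A differentially expressed gene (DEG) has an adjusted p under 0.05 in limma.

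KLU is a cytochrome P450 of the CYP78A family that acts at the border of the shoot meristem and in young organs, where it keeps cells dividing and so sets how large leaves and flowers grow. The enzyme is thought to make a mobile growth signal whose identity is not known. Mutants in klu form leaves faster than the wild type, and these leaves stay small. A rosette harvested whole holds the meristem, leaf primordia, growing leaves and old leaves in one tube. A transcript of a small cell population can therefore differ between rosettes because there are fewer of these cells or because each cell holds less of it, and the FPKM of a rosette cannot tell these apart.

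The labels were checked against the data first. KLU was listed at 0.13, 0.13 and 0.22 FPKM in klu plants, against 6.26, 5.42 and 5.53 FPKM in Col-0 plants (0.16 ± 0.052 and 5.74 ± 0.46, SD, n = 3 each). The genotypes did not overlap, and the log2 difference was -2.54 (SE 0.13, limma, adjusted p = 9.7e-07). All 6 mesophyll markers (LHCB1.1, LHCB2.1, RBCS1A, RCA, CA1 and PSBS) reached 0.5 FPKM in all 6 libraries, and none of the 8 flower markers or 3 seed markers did. Of 5 root markers, SCR and PYK10 reached it in all 6 libraries, PLT1 was listed at 0 and COBL9 stayed below it. WOX5 reached it in every library but klu replicate 1, where it had 0.23 FPKM. The libraries had similar depth, since 1 fragment was worth 0.908, 0.949 and 1.05 times as much FPKM in klu plants, and 1, 0.94 and 1.1 times in Col-0 plants, as in Col-0 replicate 1. The klu plants were not alike, however. The root mean square difference in log2(FPKM + 1) was 0.407 to 0.473 between klu replicate 1 and the other 5 plants, and 0.256 to 0.321 among those 5. Results are therefore given with klu replicate 1 and, where it changes them, without it.

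With all libraries, 12 genes were DEGs (0.0624% of those tested). Of these, 4 were higher in klu (0.0208%) and 8 were lower (0.0416%), and 1162 genes had an unadjusted p under 0.05 (6.04%, with 2.87% higher and 3.18% lower). Without klu replicate 1, 28 genes were DEGs (0.146%), 19 higher (0.0988%) and 9 lower (0.0468%). Then 9.53% of the tested genes had an unadjusted p under 0.05, 7.31% higher and 2.22% lower. Both sets shared 9 genes, 3 were called only with all libraries, and 19 were called only without klu replicate 1. The count also depended on other plants, with 25 DEGs without klu replicate 3 and 7 each without klu replicate 2, Col-0 replicate 1 or Col-0 replicate 2. In all 12 DEGs of the full set, the klu and Col-0 plants did not overlap. These genes were picked by a test on the same values, so this is a description and lends the calls no support. KLU, AT4G15242, AT1G27565, SAG12, DOX1 and AT1G30700 also passed the filter only through the genotype where they are high. Over all tested genes, 4.48% did not overlap in the higher direction and 3.6% in the lower (6.02% and 4.71% after median-of-ratios scaling).

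**Figure D1:**
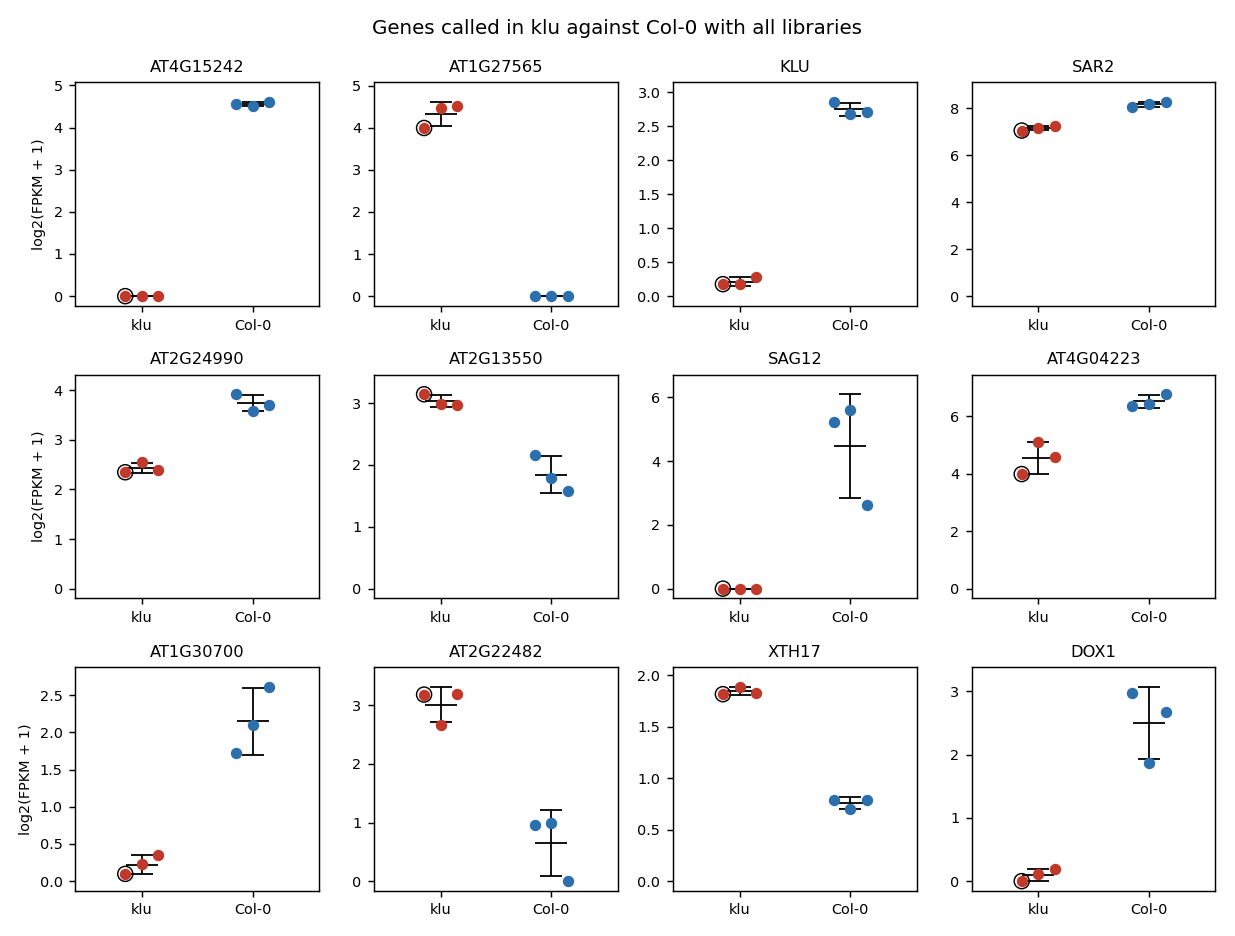
The 12 genes called with all libraries, as log2(FPKM + 1) on the vertical axis, with 1 point per plant for klu (left, red) and Col-0 (right, blue), the mean as a horizontal line and the SD as a bar. The circled point is klu replicate 1, and in every panel the 3 klu plants lie on one side of the 3 Col-0 plants.

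The gene with the smallest p after the filter was AT4G15242, a non-coding RNA gene (chr4:8705787-8706997, TAIR10.1). It was listed at 0 in all 3 klu plants, against 22.69, 21.8 and 23.41 FPKM in Col-0 plants (limma, adjusted p = 1.37e-10). The reverse was found for AT1G27565 (chr1:9574550-9575189), a protein-coding gene of no annotated function. AT1G27565 had 14.95, 21.29 and 21.84 FPKM in klu plants and none in the 3 Col-0 plants, where it was listed at 0 (limma, adjusted p = 4.25e-09). No fold is given for either gene, since one genotype stands at 0. The 35S:KLU plants were at 0 for AT4G15242 and at 19.25 to 25.04 FPKM for AT1G27565, so that for both genes the Col-0 plants stood apart from the klu and the 35S:KLU plants. In 7 of the 12 DEGs with all libraries, all 6 35S:KLU plants lay on the klu side of every Col-0 plant. In 2 of the 12 they all lay on the other side. The same count over all tested genes was not made. The model of AT4G15242 overlaps that of AT4G15245, and how reads were assigned to a strand is not stated, so reads of this pair may have been mixed.

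SAR2 (AT4G02080, chr4:921447-922759) had the largest absolute shift in FPKM per plant among the 12 DEGs with all libraries. It encodes a small GTPase of the SAR1 type, which starts the assembly of COPII coats on vesicles that leave the endoplasmic reticulum. SAR2 stood at 132.06, 141.64 and 149.67 FPKM in klu plants, against 264.1, 294.89 and 305.74 FPKM in Col-0 plants, without overlap (log2 difference -1.02, SE 0.08, limma, adjusted p = 1.21e-04). Its level in klu was 0.49 of that in Col-0, and 0.505 without klu replicate 1. The 35S:KLU plants had 133.4 to 159.29 FPKM, again apart from Col-0. The other SAR1-type genes did not pass the test. SAR1B had 185.84, 231.03 and 207.09 FPKM in klu plants and 185.52, 185.86 and 205.87 FPKM in Col-0 plants, and AT3G62560 had 55.62, 58.36 and 60.02 FPKM in klu plants and 57.44, 70.64 and 66.4 FPKM in Col-0 plants. SARA1A (AT1G09180) averaged 0.702 of the Col-0 level in klu, and 0.693 without klu replicate 1. Of the 11 tested genes for the COPII coat, SAR2 was the only one called. In 2 of the 11 every klu plant lay below every Col-0 plant and in 0 above, beside 3.6% and 4.48% of all tested genes. After median-of-ratios scaling these were 3 and 0, beside 4.71% and 6.02%.

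A second gene for basic cell functions was AT2G24990 (chr2:10625163-10628598), annotated as a Rio1 kinase, a family that in yeast matures the small ribosomal subunit. AT2G24990 had 4.09, 4.86 and 4.25 FPKM in klu plants, against 14.14, 11.05 and 12.08 FPKM in Col-0 plants (log2 difference -1.31, SE 0.12, limma, adjusted p = 7.62e-04). The genotypes did not overlap, and the level in klu was 0.354 of that in Col-0. Here the 35S:KLU lines differed from each other, since 35S:KLU1 plants had 11.92 to 13.37 FPKM of it and 35S:KLU2 plants had 3.41 to 4.99 FPKM. Its paralog AT5G37350, also annotated as RIO1, had 12.62, 15.47 and 15.98 FPKM in klu plants and 14.99, 12.81 and 14.64 FPKM in Col-0 plants and did not pass the test.

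SAG12, a cysteine protease gene that is switched on in dying leaves and is the usual marker of leaf senescence, was called lower. It was listed at 0 in all 3 klu plants, against 36.09, 47.13 and 5.11 FPKM in Col-0 plants (limma, adjusted p = 0.0134, and 0.0282 without klu replicate 1). On the log2 scale the Col-0 plants differed more among themselves than in any other DEG, with Col-0 replicate 3 far below the other two, and the 35S:KLU plants had 0 to 0.8 FPKM. Leaving out klu replicate 2, Col-0 replicate 1 or Col-0 replicate 2 ended the call (limma, adjusted p = 0.0772, 0.0739 and 0.0521, with 1.54e-06 to 0.21 over all alternatives). The call also ended with only klu and Col-0 in the model (limma, adjusted p = 0.21), where the 35S:KLU plants do not enter the spread.

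Among the lower genes were also DOX1 and AT1G30700. DOX1 encodes an alpha-dioxygenase that oxidises fatty acids during pathogen attack, and it was at 0, 0.08 and 0.14 FPKM in klu plants, against 6.83, 2.66 and 5.4 FPKM in Col-0 plants (log2 difference -2.41, SE 0.36, limma, adjusted p = 0.0386). The klu plants all lay near 0, and without klu replicate 1 the difference was -2.36 and missed the threshold (limma, adjusted p = 0.0731, with 0.00485 to 0.211 over all alternatives). AT1G30700, a berberine bridge enzyme family gene, had 0.07, 0.17 and 0.27 FPKM in klu plants, against 2.31, 3.29 and 5.12 FPKM in Col-0 plants (log2 difference -1.92, SE 0.26, limma, adjusted p = 0.0179). Its call ended without klu replicate 2 (0.107), Col-0 replicate 2 (0.086) or Col-0 replicate 3 (0.0806, all limma, adjusted p, with 0.00286 to 0.107 over all alternatives). The last lower gene, AT4G04223, is a non-coding RNA gene. It had 14.83, 33.39 and 22.77 FPKM in klu plants, against 81.42, 83.9 and 107.36 FPKM in Col-0 plants (log2 difference -1.96, SE 0.26, limma, adjusted p = 0.016). All klu plants lay below all Col-0 plants, and leaving out Col-0 replicate 1, 2 or 3 ended the call (limma, adjusted p = 0.0699, 0.0679 and 0.0858, with 0.00492 to 0.0994 over all alternatives).

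Besides AT1G27565, 3 genes were called higher. AT2G13550, a gene of no annotated function on chromosome 2, had 7.84, 6.92 and 6.8 FPKM in klu plants, against 3.48, 2.44 and 1.99 FPKM in Col-0 plants (log2 difference 1.19, SE 0.13, limma, adjusted p = 0.00376). XTH17 encodes an enzyme that cuts and rejoins xyloglucan, the chains that tie cellulose fibres together in a growing wall. XTH17 had 2.52, 2.7 and 2.55 FPKM in klu plants, against 0.73, 0.62 and 0.73 FPKM in Col-0 plants (log2 difference 1.08, SE 0.16, limma, adjusted p = 0.035). The spread within a genotype was small for this gene, and its level in klu was 3.74 times that in Col-0. The non-coding RNA gene AT2G22482 had 8.09, 5.33 and 8.15 FPKM in klu plants, against 0.95, 0.98 and 0 FPKM in Col-0 plants (log2 difference 2.36, SE 0.34, limma, adjusted p = 0.0295). XTH17 and AT2G22482 missed the threshold without klu replicate 1 (limma, adjusted p = 0.0511 and 0.0636), with 0.0109 to 0.748 for XTH17 and 0.0128 to 0.2 for AT2G22482 over all alternatives. The models of AT2G13550 and AT2G22482 also overlap other annotated genes.

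**Figure D2:**
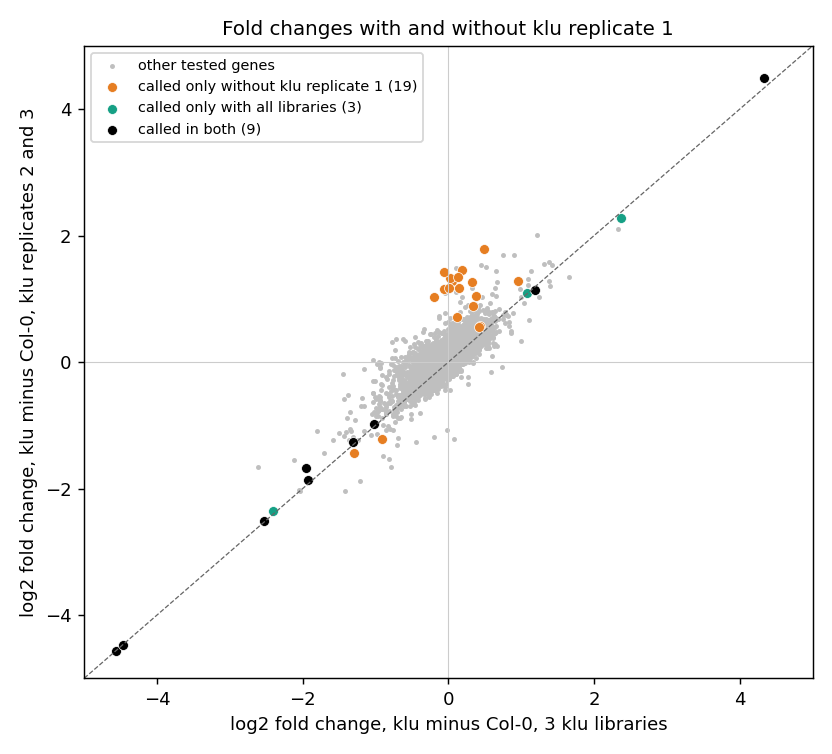
Log2 difference of each tested gene, klu minus Col-0, with the 3 klu plants on the horizontal axis and with klu replicates 2 and 3 alone on the vertical axis. Genes called in both (9, black) lie along the dashed diagonal, while 14 of the 19 genes called only without klu replicate 1 (orange) lie between -0.19 and 0.49 on the horizontal axis and between 0.71 and 1.78 on the vertical axis.

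The genes called only without klu replicate 1 were mostly higher in klu. Of these 19 genes, 17 were higher in klu replicates 2 and 3 and 2 were lower. In 14 of the 17, klu replicate 1 did not merely fall back to the level of Col-0 but lay below all 3 Col-0 plants, in 3 it lay above them, and in 0 it lay within their range. All 6 35S:KLU plants lay below all Col-0 plants in 13 of the 17, and the same count over all tested genes was not made. These genes were chosen because replicates 2 and 3 differed from Col-0, so the levels of klu replicate 1 are given as a description. The sum of the 5 root markers ran in the same order, at 17.42, 67.79 and 49.76 FPKM in klu plants, against 30.06 to 33.12 FPKM in Col-0 plants. Most of it was PYK10, a beta-glucosidase abundant in roots, with 7.03, 55.03 and 38.14 FPKM in klu plants, against 21.81, 19.57 and 18.19 FPKM in Col-0 plants, while SCR had 10.13 to 10.95 FPKM in klu plants, against 9.67 to 10.3 FPKM in Col-0 plants. The part of root tissue in the genes called without klu replicate 1 was not tested.

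Of the 17 genes, 6 belong to the lipid-transfer protein superfamily, which holds many small secreted proteins with a hydrophobic pocket that are often made in the epidermis of young organs. Of these 6, 5 lie together on chromosome 4 and the sixth, AT5G01870, is on chromosome 5. A further member of the group on chromosome 4, AT4G22520, was picked after its values were seen. The 6 genes on chromosome 4 (AT4G22485, AT4G22490, AT4G22505, AT4G22513, AT4G22517 and AT4G22520) span 14465 bases (chr4:11844506-11858970, TAIR10.1). AT4G22513 and AT4G22517 are neighbours whose coding sequences, 348 bases each, are 95.69% identical, so their fragments may have been shared out between them and their separate levels are uncertain. All 6 genes but AT4G22490 also overlap a gene model on the other strand (AT4G22475, AT4G22495, AT4G22510 or AT4G22530), and reads of such pairs may have been mixed. In the 250 bases before their annotated starts the identity is 68.63%. These upstream sequences are shown because both genes had the same profile over the 6 plants, and the capitals mark the string TATAAATACAAA, which starts 32 bases before the start of each gene (RefSeq, TAIR10.1, plus strand, chr4:11854559-11854808 for AT4G22513 and chr4:11856493-11856742 for AT4G22517).
AT4G22513: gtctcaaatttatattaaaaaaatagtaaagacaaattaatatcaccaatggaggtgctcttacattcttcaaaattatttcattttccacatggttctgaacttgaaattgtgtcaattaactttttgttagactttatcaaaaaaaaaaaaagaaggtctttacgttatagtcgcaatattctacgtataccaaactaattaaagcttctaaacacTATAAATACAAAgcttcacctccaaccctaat
AT4G22517: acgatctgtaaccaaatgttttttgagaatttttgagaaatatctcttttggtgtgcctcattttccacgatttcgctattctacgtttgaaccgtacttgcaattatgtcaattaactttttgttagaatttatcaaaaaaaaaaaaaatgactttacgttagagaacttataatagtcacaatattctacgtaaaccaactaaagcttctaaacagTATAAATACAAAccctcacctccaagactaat

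The string is the longest that AT4G22513, AT4G22517 and AT4G22520 share in this window, was chosen after the sequences had been read, and contains the shorter TATA box string TATAAA. Searched on both strands of the 250 bases before 27443 protein-coding genes, TATAAATACAAA was found in 31 (0.113%), among them AT4G22513, AT4G22517 and AT4G22520. TATAAA alone was found in 47.35% of these promoters and in 5 of the 7 lipid-transfer genes. The L1 box of epidermal genes (TAAATGTA or TAAATGCA) was found in 4.489% of all promoters and in 0 of the 7.

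AT4G22517 had 50.53, 684.76 and 858.75 FPKM in klu plants, against 300.78, 299.17 and 318.1 FPKM in Col-0 plants. Thus klu replicates 2 and 3 lay above all Col-0 plants and klu replicate 1 far below them. Without klu replicate 1 the log2 difference was 1.32 (SE 0.16, limma, adjusted p = 0.00531). The call of AT4G22513 (limma, adjusted p = 0.043) ended in 5 of 10 other settings and without any 1 of the remaining klu and Col-0 plants, with 0.00877 to 0.191 over all alternatives. AT4G22513 had 57.27, 704.79 and 768.6 FPKM in klu plants, against 368.13, 351.03 and 362.18 FPKM in Col-0 plants, AT4G22490 had 24.08, 291.64 and 328.1 FPKM in klu plants, against 141.01, 122.12 and 154.63 FPKM in Col-0 plants, and AT4G22505 had 14.21, 200.58 and 220.06 FPKM in klu plants, against 100.09, 69.83 and 62.36 FPKM in Col-0 plants. The Col-0 mean was 5.45 to 6.29 times klu replicate 1 in the 5 called genes on chromosome 4, and klu replicates 2 and 3 averaged 2.04 to 2.72 times the Col-0 mean. AT4G22520 had the same order, with 5.33, 104.07 and 120.1 FPKM in klu plants, against 41.27, 27.52 and 52.7 FPKM in Col-0 plants, and was not called (limma, adjusted p = 0.267 without klu replicate 1). AT5G01870, the member on chromosome 5, had 8.99, 190.24 and 248.7 FPKM in klu plants, against 82.96, 71.48 and 86.61 FPKM in Col-0 plants (log2 difference without klu replicate 1 of 1.43, SE 0.12, limma, adjusted p = 6.07e-04). With all libraries the 17 genes had adjusted p values of 0.282 to 0.999 in limma.

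**Figure D3:**
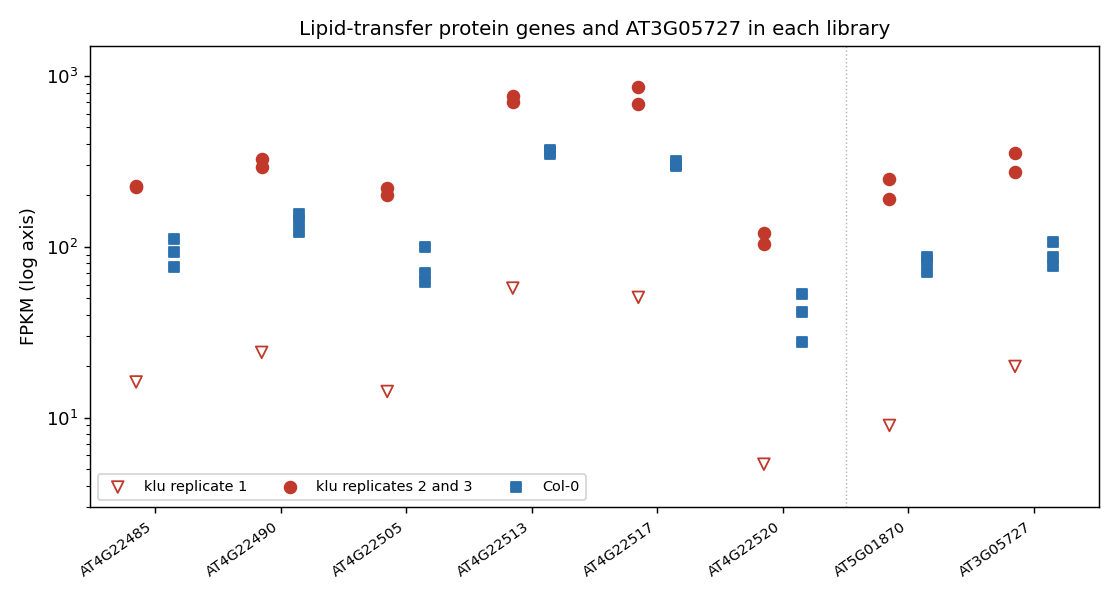
FPKM (log axis) of the 6 lipid-transfer protein genes on chromosome 4, of AT5G01870 and of AT3G05727, with klu replicate 1 as open triangles and klu replicates 2 and 3 as red circles (left) and the 3 Col-0 plants as blue squares (right). In every gene klu replicate 1 lies lowest and klu replicates 2 and 3 lie highest, for example at 50.53, 684.76 and 858.75 FPKM in AT4G22517 beside 299.17 to 318.1 FPKM in Col-0.

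AT3G05727, annotated as similar to pollen coat proteins that bind an S-locus-related glycoprotein, had the largest difference among these 17 genes. It was at 19.92, 272.28 and 353.81 FPKM in klu plants, against 106.98, 77.1 and 86.66 FPKM in Col-0 plants (log2 difference without klu replicate 1 of 1.78, SE 0.17, limma, adjusted p = 0.00102). RRA1 and AT5G64110 shared this order. RRA1, an arabinosyltransferase for the wall protein extensin, had 3.45, 17.03 and 15.89 FPKM in klu plants, against 8.14, 7.16 and 7.15 FPKM in Col-0 plants (1.04, SE 0.11, limma, adjusted p = 0.00221). AT5G64110, a peroxidase family gene, had 5.55, 66.05 and 82.27 FPKM in klu plants, against 32.03, 31.38 and 32.82 FPKM in Col-0 plants (1.18, SE 0.12, limma, adjusted p = 0.00221). Col-0 plants differed little among themselves in both genes, and the klu plants lay on both sides of them. The same order was found for AT1G28710, annotated like RRA1 as a nucleotide-diphospho-sugar transferase, for AT4G35810, an oxygenase family gene, for AT5G38940, a cupin family gene, and for PRB1, a basic relative of the defence protein PR1. The call of AT5G38940 ended in 7 of 10 other settings. The order was also found for DFL1 (GH3.6), which links auxin to amino acids and was the only called gene of the auxin list. DFL1 had 6.07, 23.85 and 23.28 FPKM in klu plants, against 15.57, 12.92 and 13.56 FPKM in Col-0 plants (0.71, SE 0.10, limma, adjusted p = 0.0232). Its call ended under median-of-ratios and upper-quartile scaling (limma, adjusted p = 0.0772 and 0.0832), the replicate block (0.0864) and the model of klu and Col-0 alone (0.102), and without klu replicate 2 (0.166) or 3 (0.136), Col-0 replicate 2 (0.109) or 3 (0.0899) or 35S:KLU1 replicate 2 (0.0514).

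In ABH1, ADS1 and AT2G43340, all 3 klu plants lay above Col-0. ABH1 encodes the large subunit of the complex that binds the cap of mRNA in the nucleus, and lies near AT2G13550 (chr2:5636884-5643066 and chr2:5648329-5649847). ABH1 had 18.26, 23.74 and 25.16 FPKM in klu plants, against 16.31, 16.16 and 15.9 FPKM in Col-0 plants (0.57 without klu replicate 1, SE 0.07, limma, adjusted p = 0.00575). ADS1, a desaturase of membrane fatty acids, had 6.22, 12.05 and 14.09 FPKM in klu plants, against 5.47, 4.58 and 4.4 FPKM in Col-0 plants (1.28, SE 0.20, limma, adjusted p = 0.0361). The ADS1 call ended in 5 of 10 other settings, among them median-of-ratios scaling (limma, adjusted p = 0.0656), upper-quartile scaling (0.0618) and a pseudocount of 0.1 (0.207). It also ended in 7 of 11 fits that left out a further library, among them klu replicates 2 (0.134) and 3 (0.187) and each Col-0 plant (0.0676 to 0.135). Lower without klu replicate 1 were LBD26, a transcription factor of the LOB-domain family, and the non-coding RNA gene AT2G05995, whose call ended in 7 of 9 other settings. LBD26 had 3.48, 1.22 and 1.52 FPKM in klu plants, against 5.27, 3.65 and 4.67 FPKM in Col-0 plants (-1.21, limma, adjusted p = 0.0159).

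Klu replicate 1 was then compared with the other 5 plants gene by gene, as a description of 1 plant with no test. In 210 genes (1.09% of those tested) it lay at least 1 log2 unit below the lowest of the other 5, and in 3 genes (0.0156%) it lay that far above the highest. The same counts for the other plants were 2 to 8 genes below and 3 to 12 above. In 172 of the 210 low genes, the other 5 plants, klu and Col-0 alike, lay within 1 log2 unit of each other. Klu replicate 1 did not have less depth, and its median-of-ratios factor, 0.883, was the lowest of the 12 libraries. After scaling by this factor, 167 genes (0.869%) were still that far below.

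The low genes of klu replicate 1, 1.09% of all tested genes, held 6 of the 29 tested regulators of shoot meristem and organ boundary. They also held 5 of the 25 tested genes of salicylic acid and pathogen response, and 2 of the 13 of camalexin and indole metabolism. STM, which keeps cells of the shoot meristem undifferentiated, was listed at 0 in klu replicate 1 and had 8.21 and 9.28 FPKM in klu replicates 2 and 3, against 7.27, 6.5 and 6.69 FPKM in Col-0 plants. LOB and LSH4, both active at the border between meristem and organs, were low as well. LOB had 0.89, 5.78 and 7.98 FPKM in klu plants, against 5.3, 5.65 and 5.26 FPKM in Col-0 plants, and LSH4 had 12.99, 60.22 and 63.17 FPKM in klu plants, against 56.14, 68.1 and 66.72 FPKM in Col-0 plants. GRF5, a growth-regulating factor of young leaves, had 0.35, 5.25 and 5.51 FPKM in klu plants, against 4.16, 3.65 and 4.5 FPKM in Col-0 plants. For all 4 genes klu replicate 1 alone was low, and klu replicates 2 and 3 were close to Col-0 or above it.

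By the same measure, klu replicate 1 was low in 0 of 21 XTH genes, 1 of 20 expansins and 1 of 17 genes of trichomes and epidermis. The share over all tested genes was 1.09%, and lists this short cannot be told from it by such counts. The largest shortfall among genes that were steady in the other 5 plants was that of AT1G62500, a lipid-transfer family gene, with 2.41, 40.74 and 49.8 FPKM in klu plants, against 52.16, 50.29 and 51.94 FPKM in Col-0 plants. GH9B13, a family 9 glycosyl hydrolase, had 2.11, 28.69 and 26.69 FPKM in klu plants, against 26.46, 27.51 and 26.76 FPKM in Col-0 plants, and LTP6, a lipid transfer protein, had 17.24, 143.6 and 138.6 FPKM in klu plants, against 122.25, 106.51 and 99.81 FPKM in Col-0 plants. ACO1, an enzyme that makes ethylene, had 1.91, 14.24 and 18.89 FPKM in klu plants, against 16.32, 17.19 and 18.47 FPKM in Col-0 plants. The 5 markers of young dividing leaf summed to 38.57, 108.43 and 90.49 FPKM in klu plants, against 80.06 to 94.43 FPKM in Col-0 plants. The 9 markers of meristem and boundary summed to 26.75, 42.62 and 40.99 FPKM in klu plants, against 36.17 to 37.49 FPKM in Col-0 plants. Most of this sum was CLV1, which was not low in klu replicate 1. CLV1 had 26.25, 27.27 and 25.21 FPKM in klu plants, against 24.94 to 26.74 FPKM in Col-0 plants. The sum of mesophyll markers was instead highest in klu replicate 1. It was 48708, 40415 and 38622 FPKM in klu plants and 39330 to 42334 FPKM in Col-0 plants. The part of these tissues in the other differences was not tested.

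**Figure D4:**
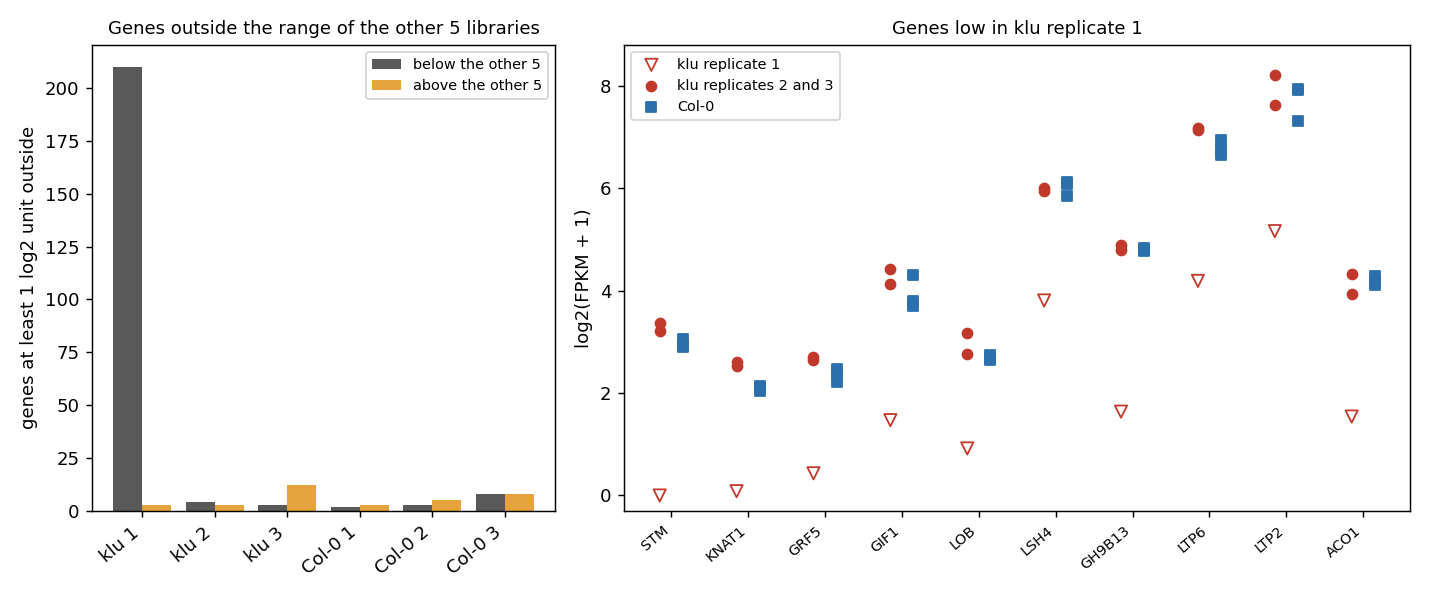
Left, the number of genes in which each plant lies at least 1 log2 unit below (grey) or above (orange) the range of the other 5, with 210 and 3 genes for klu replicate 1 and at most 12 for any other plant. Right, log2(FPKM + 1) of 10 genes low in klu replicate 1 (open triangles), with klu replicates 2 and 3 as red circles and Col-0 plants as blue squares, which lie within 1 log2 unit of each other in each gene.

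Lists of genes by role were described next by counts of members and by their median log2 difference, which over all tested genes was -0.01 with all libraries and 0.05 without klu replicate 1. The counts at an unadjusted p under 0.05 in every list stand beside 2.87% higher and 3.18% lower of all tested genes. Without klu replicate 1 these shares were 7.31% higher and 2.22% lower. In the list of 29 tested regulators of shoot meristem and organ boundary, the median was -0.04 with all libraries and 0.17 without klu replicate 1. In this list 0 genes were called in either fit of limma, and at an unadjusted p under 0.05 there were 0 with all libraries and 8 without klu replicate 1, all higher. In 15 of the 29, klu replicates 2 and 3 were both above all Col-0 plants and in 1 both were below, where all tested genes gave 19.4% and 5.56%. After median-of-ratios scaling these were 12 and 1, beside 12.1% and 11.9% of all genes. The 8 included KNAT1, a homeobox gene of the meristem and stem, with 0.06, 4.74 and 5.11 FPKM in klu plants, against 3.09, 3.31 and 3.39 FPKM in Col-0 plants. They also included REV, which sets the upper side of leaves, with 8.47, 13.65 and 15.03 FPKM in klu plants, against 11.63, 11.62 and 12.53 FPKM in Col-0 plants, and BOP2, which patterns the leaf base, with 2.68, 6.18 and 6.48 FPKM in klu plants, against 4.76, 5.28 and 5.25 FPKM in Col-0 plants. In each of these genes klu replicate 1 was lowest and klu replicates 2 and 3 were highest of the 6 plants.

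All 43 tested genes of the mitotic cell cycle were lower in klu replicate 1 than the mean of the other 5 plants, as were 14402 of all 19228 tested genes. The median difference was -0.60 beside -0.16 over all tested genes, and -0.45 beside 0.01 after median-of-ratios scaling. The summed level of this list was 367.58, 686.09 and 557.1 FPKM in klu plants, against 608.18, 546.34 and 547.43 FPKM in Col-0 plants. Thus klu replicate 1 was lowest, and klu replicates 2 and 3 lay on both sides of Col-0 replicate 1. No gene of the list was called by limma, and 0 had an unadjusted p under 0.05 with all libraries and 6 without klu replicate 1. CYCD3;2, a D-type cyclin that keeps leaf cells dividing, had 28.4, 45.62 and 39.48 FPKM in klu plants, against 34.28, 30.31 and 34.35 FPKM in Col-0 plants.

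Among 30 tested regulators of leaf and organ growth, limma called 0, and 3 were lower at an unadjusted p under 0.05 and 0 higher. The counts were 2 lower and 4 higher without klu replicate 1, and the median was then 0.09 in place of -0.05. GRF7, a growth-regulating factor, had 0.34, 0.71 and 0.67 FPKM in klu plants, against 1.5, 1.64 and 1.22 FPKM in Col-0 plants (log2 difference -0.65, SE 0.13, limma, adjusted p = 0.186). GIF3, a coactivator that pairs with these factors, had 2.54, 3.74 and 3.71 FPKM in klu plants, against 5.77, 5.25 and 5.9 FPKM in Col-0 plants (-0.63, SE 0.14, limma, adjusted p = 0.253). Neither gene overlapped between the genotypes, with or without klu replicate 1, though neither passed the test. The 35S:KLU plants had 3.9 to 5.82 FPKM of GRF7 and 7.08 to 9.88 FPKM of GIF3.

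Jasmonate, a lipid-derived hormone of wounding and defence, belongs to the oxylipins, which are oxidised fatty acids. The list of jasmonate and oxylipin genes had more members on the lower side than any other list with all libraries. Of 32 tested members, DOX1 was called lower, and 12 were lower and 0 higher at an unadjusted p under 0.05 (6 and 1 without klu replicate 1). Over all tested genes 3.18% were lower and 2.87% higher at this threshold (2.22% and 7.31% without klu replicate 1). The median was -0.30 with all libraries and -0.23 without klu replicate 1. The klu plants lay below all Col-0 plants in 6 of the 32 and above them in 0, beside 3.6% and 4.48% of all tested genes. These 6 included the lipoxygenases LOX2, LOX3 and LOX4, which add oxygen to fatty acids at the start of the pathway, and HPL1, which splits the same products into leaf volatiles. LOX2 had 505.31, 444.38 and 459.87 FPKM in klu plants, against 511.45, 696.57 and 632.66 FPKM in Col-0 plants (log2 difference -0.37, SE 0.14, limma, adjusted p = 0.733). LOX4 had 2.45, 3.31 and 4.22 FPKM in klu plants, against 6.1, 7.94 and 5.03 FPKM in Col-0 plants (-0.77, SE 0.19, limma, adjusted p = 0.333). In both genes the genotypes were close at their edges, and neither gene passed the threshold after adjustment over all tested genes. In the list for touch, wounding and early handling of leaves, limma called 0 of 17, with 4 lower and 0 higher at an unadjusted p under 0.05 and a median of -0.29. Without klu replicate 1 these were 1 lower and 1 higher, with a median of -0.17. Whether handling had a part in the values of the jasmonate and oxylipin list was not tested.

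Of 29 tested genes of leaf senescence and chlorophyll breakdown, SAG12 was called lower, and 5 were lower and 2 higher at an unadjusted p under 0.05 (3 and 1 without klu replicate 1). SAG13, a dehydrogenase gene of ageing leaves, had 5.07, 13.75 and 20.03 FPKM in klu plants, against 38.7, 27.34 and 29.13 FPKM in Col-0 plants (log2 difference -1.39, SE 0.35, limma, adjusted p = 0.365). WRKY53, a transcription factor active at the start of senescence, had 9.66, 14.8 and 21.96 FPKM in klu plants, against 22.08, 23.38 and 22.74 FPKM in Col-0 plants. In both genes all klu plants lay below all Col-0 plants, with klu replicate 1 the lowest. SEN1, a gene induced by darkness, ran the other way without parting the genotypes, at 20.86, 11.29 and 17.54 FPKM in klu plants and 6.97, 10.4 and 13.64 FPKM in Col-0 plants. The median of the list was -0.15 with all libraries and -0.04 without klu replicate 1.

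Salicylic acid and pathogen genes depended on klu replicate 1 more than most, with a median of -0.16 with all libraries and 0.07 without it. PR1, the best known marker of this hormone, had 106.82, 396.18 and 549.64 FPKM in klu plants, against 327.66, 549.53 and 544.16 FPKM in Col-0 plants. Klu replicate 1 was the lowest plant, and klu replicates 2 and 3 lay within or next to the Col-0 range. PR5 and BGL2, a further pair of pathogenesis-related genes, had their lowest level in klu replicate 1 too, at 260.19 and 123.57 FPKM. Camalexin and indole genes had a median of -0.35 with all libraries and -0.11 without klu replicate 1, and CYP79B2, at the start of this pathway, had 27.33, 33.82 and 39.48 FPKM in klu plants, against 42.79, 44.36 and 43.11 FPKM in Col-0 plants. In neither list did limma call a gene (0 of 25 and 0 of 13), while 3 of each were lower and 0 higher at an unadjusted p under 0.05. Without klu replicate 1 these counts were 2 lower and 3 higher for salicylic acid and 1 lower and 0 higher for camalexin.

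The xyloglucan enzymes of the XTH family had 21 tested members. XTH17 was called higher, and 5 were higher and 3 lower at an unadjusted p under 0.05 (4 and 1 without klu replicate 1, when 0 were called). XTH4 had 125.47, 149.3 and 155.28 FPKM in klu plants, against 111.01, 107.91 and 118.86 FPKM in Col-0 plants (log2 difference 0.34, SE 0.09, limma, adjusted p = 0.385). On the lower side, XTR6 (XTH23) had 0.51, 0.26 and 0.22 FPKM in klu plants, against 1.34, 0.85 and 1.09 FPKM in Col-0 plants, and XTH9 had 94.83, 197.93 and 181.26 FPKM in klu plants, against 211.67, 208.21 and 228.96 FPKM in Col-0 plants. The genotypes did not overlap in XTH4, XTR6 or XTH9, and the family as a whole had members on both sides. The 35S:KLU plants had 51.31 to 67.99 FPKM of XTH4 and 0 to 0.54 FPKM of XTH17.

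**Figure D5:**
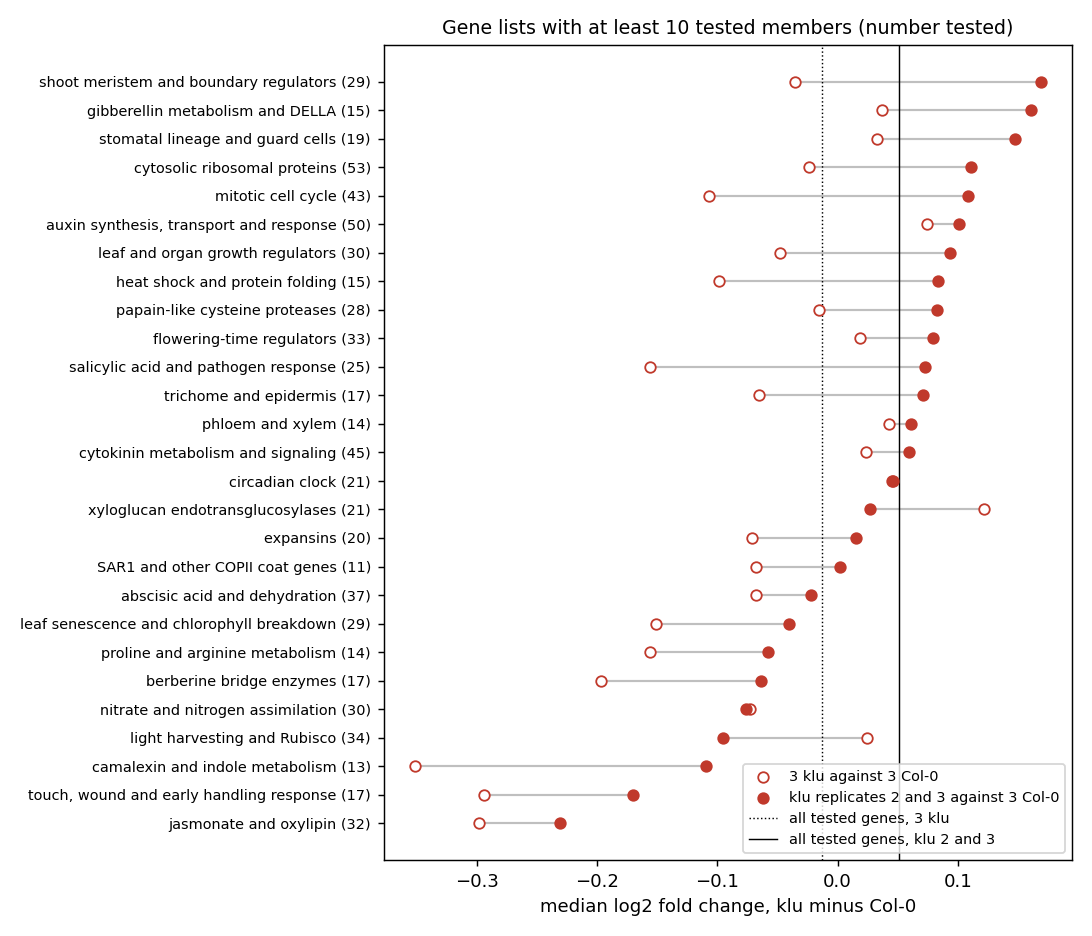
Median log2 difference, klu minus Col-0, of each gene list with at least 10 tested members (number in parentheses), with all libraries (open circles) and without klu replicate 1 (filled circles). Vertical lines mark the medians over all tested genes, -0.01 (dotted) and 0.05 (solid). The shoot meristem list runs between -0.04 and 0.17 while the jasmonate and oxylipin list stays at -0.30 and -0.23.

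Of 45 tested cytokinin genes, limma called 0, and 2 were higher and 1 lower at an unadjusted p under 0.05, with a median of 0.02. There were 7 higher and 0 lower without klu replicate 1, beside 7.31% and 2.22% of all tested genes. The median was then 0.06, beside 0.05 over all tested genes, and limma again called 0. CKX1, which breaks cytokinin down, had 2.43, 5.12 and 5.7 FPKM in klu plants, against 3.11, 3.17 and 2.54 FPKM in Col-0 plants. Without klu replicate 1 its log2 difference was 0.70 (SE 0.12, limma, adjusted p = 0.0663), and with it the genotypes overlapped. ARR7, an early response gene of the hormone, had 48.49, 54.77 and 35.95 FPKM in klu plants and 54.6, 44.85 and 40.55 FPKM in Col-0 plants, with overlap. Of 14 tested genes of proline and arginine metabolism, limma called 0, and 3 were lower and 0 higher at an unadjusted p under 0.05 (2 and 0 without klu replicate 1). ERD5, the proline dehydrogenase that starts the breakdown of proline, had 2.96, 3.38 and 2.46 FPKM in klu plants, against 4.79, 4.07 and 5.75 FPKM in Col-0 plants (log2 difference -0.57, SE 0.18, limma, adjusted p = 0.62).

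Light harvesting and Rubisco genes made up much of the RNA and were highest in klu replicate 1. Their summed level was 238185, 193109 and 190984 FPKM in klu plants, against 202034, 195008 and 211325 FPKM in Col-0 plants. In klu replicate 1, 1 of the 34 lay below the mean of the other 5 plants, beside 14402 of all 19228 tested genes. Limma called 0 of them, and 1 was lower and 0 higher at an unadjusted p under 0.05 (6 and 0 without klu replicate 1). The shares of all tested genes were 3.18% lower and 2.87% higher (2.22% and 7.31% without klu replicate 1). With FPKM as deposited, klu replicates 2 and 3 were both below all Col-0 plants in 13 of the 34 (5.56% of all tested genes), and after median-of-ratios scaling in 27 (11.9% of all), so this count depended on how libraries were scaled.

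Some genes without overlap between the genotypes were not called. They were picked for not overlapping, at an unadjusted p under 0.05. Over all tested genes, 4.48% did not overlap in the higher direction and 3.6% in the lower. AGP12, a short arabinogalactan protein of the cell surface, had 218.26, 224.09 and 209.46 FPKM in klu plants, against 117.63, 142.99 and 126.69 FPKM in Col-0 plants (log2 difference 0.75, SE 0.12, limma, adjusted p = 0.0744). AT5G18030, a SAUR-type auxin response gene, had 43.27, 34.15 and 34.31 FPKM in klu plants, against 15.54, 19.49 and 24.71 FPKM in Col-0 plants (0.89, SE 0.16, limma, adjusted p = 0.126). TCL2, a small MYB protein that holds back trichomes, had 26.12, 57.39 and 45.41 FPKM in klu plants, against 20.71, 24.13 and 11.79 FPKM in Col-0 plants. In these 3 genes every klu plant lay above every Col-0 plant. On the lower side, KTI1, an inhibitor of proteases, had 0.57, 3.06 and 5.52 FPKM in klu plants, against 22.75, 13.89 and 8.7 FPKM in Col-0 plants (-2.12, SE 0.51, limma, adjusted p = 0.312). ZPR2, a small protein that blocks the class III HD-ZIP factors of the meristem and upper leaf side, was at 0, 3.02 and 3.92 FPKM in klu plants, against 6.43, 9.23 and 10.03 FPKM in Col-0 plants (-1.80, SE 0.49, limma, adjusted p = 0.423). DFR, an enzyme of anthocyanin synthesis, had 1.21, 12.55 and 11.47 FPKM in klu plants, against 12.92, 27 and 17.73 FPKM in Col-0 plants. In KTI1, ZPR2 and DFR klu replicate 1 was the lowest of the klu plants, which all lay below Col-0.

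The other CYP78A genes did not pass the test. Of these, 4 were tested and CYP78A10 was listed at 0 in all 6 plants. CYP78A7, which acts together with KLU in the shoot apex, had 0.52, 1.54 and 1.61 FPKM in klu plants and 0.75, 0.75 and 0.58 FPKM in Col-0 plants, so that klu replicates 2 and 3 lay above Col-0 and klu replicate 1 below it. CYP78A8 had 3.7, 3.29 and 1.46 FPKM in klu plants and 1.78, 1.38 and 1.42 FPKM in Col-0 plants, and CYP78A9 had 8.4, 7.75 and 9.93 FPKM in klu plants and 7.56, 9.19 and 8.41 FPKM in Col-0 plants, both with overlap. The genes around KLU (chr1:4702657-4704694) were examined because a T-DNA can change its neighbours. Of the 10 annotated genes on either side, 11 in all were tested, and limma called 0 of them with or without klu replicate 1. Of these, 2 had an unadjusted p under 0.05, both higher in klu, beside 6.04% of all tested genes (2.87% higher and 3.18% lower). The 11 log2 differences ran between -0.21 and 0.50. PGL1, one of the 2, had 8.53, 7.17 and 6.22 FPKM in klu plants, against 4.91, 4.73 and 5.45 FPKM in Col-0 plants (0.45, limma, adjusted p = 0.417), and AT1G13650, the other, had 39.78, 29.23 and 26.98 FPKM in klu plants, against 24.44, 21.8 and 20.19 FPKM in Col-0 plants (0.50, limma, adjusted p = 0.763). Both lay above Col-0 in every klu plant, as did 4.48% of all tested genes.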

How the data were processed

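RNA of 12 rosettes, 3 plants for each of klu, Col-0, 35S:KLU1 and 35S:KLU2, was sequenced from poly(A) libraries made with a strand-specific kit. The authors mapped the reads to TAIR10 and deposited FPKM per gene, and the submitters' processing notes name STAR, with no version, and RSEM 1.2.22. The deposited log2 fold changes and the deposited p-values are the authors' own DESeq2 comparisons and were not used. The deposited table was used for 33323 genes with 0 unused columns of per-sample values, of which 32835 were found in the RefSeq annotation of TAIR10.1, the source of names, coordinates and sequences.

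Genes that reached 0.5 FPKM in 3 or more of the 6 klu and Col-0 libraries were kept, and log2(FPKM + 1) was fitted with limma 3.58.1 in R 4.3.3. A single model of 4 genotype means over the 12 libraries was used with a variance trend over expression. P-values, all two-sided, were adjusted with the Benjamini-Hochberg method over all tested genes, and the fit was repeated without klu replicate 1. The fit was checked on simulated data with known changes. FPKM keeps no count of fragments, so depth was read from the steps between low values of the same gene, and no counting interval is given.

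The members, the 32 gene lists (27 by symbols, 744 of 754 matched, and 5 by description) and the rules were chosen with earlier results of these data known. Named genes are KLU and its neighbours, all DEGs of both fits, paralogs of DEGs, up to 10 non-overlapping genes per direction with a mean of at least 5 FPKM, members of lists with the largest or called changes, and up to 15 genes per direction for klu replicate 1. REV, BOP2, CYCD3;2, CKX1, ARR7, WRKY53, PR5, BGL2, SEN1, LOX2 and AT4G22520 lie partly outside these rules and were picked after their values were seen. Alternatives were other filters, a pseudocount of 0.1, a replicate block, only klu and Col-0 in the model, library weights, 3 scalings and leaving out each library in turn. The median-of-ratios counts for gene lists and for klu replicate 1, and its margin of 0.5 log2 units, were added after seeing the data. Plants are individual, and nothing in the sources says whether they shared a tray or harvest.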

Additional observations from a re-analysis of the deposited data

How the results depend on the processing

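The 12 DEGs between klu and Col-0 became 4 with at least 1 FPKM asked in all 6 libraries, which tests fewer genes, and 6 with only klu and Col-0 in the model, and the cause of the count of 6 was not tested. Leaving out 1 library in turn gave 7 to 28 DEGs. The 28 DEGs without klu replicate 1 became 16 to 34 when a further library was left out, the lowest without klu replicate 3, which leaves 1 klu plant that is assumed to vary like the others. The 210 genes of klu replicate 1 became 894 with a margin of 0.5 log2 units. All other settings gave 8 to 14 and 19 to 39 DEGs, within 1.5 times of each count, and KLU was called in every setting in which it was tested, with no direction reversed. The filter of 1 FPKM in all 6 libraries removes KLU.

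SAR2 and AT2G24990 were called under all alternatives, AT4G15242, AT1G27565 and KLU under all but that filter, which removes them, and AT2G13550 under all but the model of klu and Col-0 alone (limma, adjusted p = 0.129). In that model SAG12, DOX1, AT1G30700, AT4G04223, XTH17 and AT2G22482 lost their call too (limma, adjusted p = 0.055 to 0.21). XTH17 and AT2G22482 lost their call without any 1 of the 6 klu and Col-0 libraries, and DOX1 without any klu library or Col-0 replicate 1 or 3. Among genes called only without klu replicate 1, AT5G01870, AT3G05727, RRA1, AT4G22490 and AT5G64110 kept the call in all alternatives and AT2G43340 in none of 10 other settings. With a further library left out, AT4G22505, AT4G22517 and ABH1 lost it only without klu replicate 3 (limma, adjusted p = 0.0751, 0.0922 and 0.0957).

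The replicate block gave 8 DEGs with all libraries and 22 without klu replicate 1. Deviations of klu and Col-0 plants of the same number had correlations of -0.03, -0.11 and 0.06, and not every plant correlated best with its own number. These values gave no sign that the numbers pair the plants, but with 3 plants per genotype they cannot exclude it. Genes near 0.5 FPKM rest on few fragments, and 3 plants per genotype limit what can be called.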

Other observations

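The clock list had the same median in both fits, 0.05 with all libraries and 0.05 without klu replicate 1. Limma called 0 of its 21 tested genes, and 3 were higher and 4 lower at an unadjusted p under 0.05, beside 2.87% and 3.18% of all tested genes. LNK2, a coactivator of the morning clock genes, had 34.41, 33.89 and 33.51 FPKM in klu plants, against 30.2, 28.46 and 28.01 FPKM in Col-0 plants (log2 difference 0.23, SE 0.07, limma, adjusted p = 0.637). PRR3, a pseudo-response regulator, had 12.16, 11.88 and 11.8 FPKM in klu plants, against 14.34, 13.35 and 14.32 FPKM in Col-0 plants (-0.21, SE 0.07, limma, adjusted p = 0.673). The genotypes did not overlap in 8 of the 21, with klu higher in 5 and lower in 3, beside 4.48% and 3.6% of all tested genes. After median-of-ratios scaling these were 4 and 0, beside 6.02% and 4.71%. The hour of harvest of each plant is not given in the sources used here, and its part in these values was not tested.

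In the list of stomatal lineage and guard cells, FMA (FAMA), which ends the divisions of the lineage, had 13.19, 14.44 and 12.51 FPKM in klu plants, against 10.86, 11.53 and 11.21 FPKM in Col-0 plants (log2 difference 0.24, SE 0.09, limma, adjusted p = 0.739). MUTE, which acts before it, had 3.67, 3.45 and 3.53 FPKM in klu plants, against 2.89, 1.31 and 2.82 FPKM in Col-0 plants (0.49, SE 0.20, limma, adjusted p = 0.756). Both lay above Col-0 in all 3 klu plants, klu replicate 1 included, and limma called 0 of the 19 tested members, with 2 higher and 0 lower at an unadjusted p under 0.05 (5 and 0 without klu replicate 1). Over all tested genes 2.87% were higher and 3.18% lower at this threshold (7.31% and 2.22% without klu replicate 1).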
